A study of Mus musculus with 63 samples.

Results

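Oxidative phosphorylation subunits were examined as 81 nuclear genes among 24766 genes measured by bulk RNA sequencing in mouse small intestinal tumours. They were chosen by gene symbol as subunits of the 4 respiratory chain complexes and of ATP synthase, which is counted as complex V. Symbols of pseudogenes were left out, and 81 of the 85 symbols that matched had a mean normalised count of at least 10 over all libraries. *Cox4i2*, *Cox6a2*, *Cox6c2* and *Ndufs6b* lay below that mean. Complex I contributed 39 genes, complex II 4, complex III 8, complex IV 13 and complex V 17. Complexes were assigned by symbol, so *Ndufa4* and its relative *Ndufa4l2* were counted in complex I, although *Ndufa4* is also assigned to complex IV. *Ndufab1*, a subunit of complex I, and *Cyc1*, the cytochrome c1 subunit of complex III, have symbols of another form and are described apart from the 81 genes.

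The respiratory chain sits in the inner mitochondrial membrane. Complex I takes electrons from NADH and complex II, which is also the succinate dehydrogenase of the tricarboxylic acid cycle, takes them from succinate. Complex III passes them through cytochrome c to complex IV, which reduces oxygen, and the proton gradient that the chain builds up drives ATP synthase. Most subunits are encoded in the nucleus, while the catalytic or proton-moving cores of complexes I, III, IV and V also contain subunits encoded in mitochondrial DNA. All subunits of complex II are nuclear. In the intestine, respiration is active in absorptive enterocytes and in crypt base stem cells.

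The 63 libraries came from 2 C57BL/6 mice, 1 female and 1 male, so that sex and mouse cannot be told apart. Both mice carried Villin-creER, a Cre recombinase that tamoxifen activates in the intestinal epithelium, with a single floxed *Apc* allele and the Confetti multicolour reporter (the *Apc*het genotype). Both received 4 mg tamoxifen at an age of at least 8 weeks and 200 mg per kg of the mutagen *N*-ethyl-*N*-nitrosourea (ENU) 10 days later. There were 20 major and 20 minor clones, the larger and smaller differently coloured regions dissected out of 20 tumours (10 per mouse), and 23 tumours that were not divided (10 from the female mouse and 13 from the male). Every group therefore shared the *Apc*het genotype, tamoxifen and ENU, and no tumour-free tissue was compared. The series describes 20 monoclonal tumours, whereas 23 libraries carried no clone letter, and all 23 were used as undivided tumours. Those of the female mouse are numbered 1 to 10, and those of the male mouse 1 to 10, 15, 17 and 18. Tumours came from the intestinal segments that the labels call SI10, SI20 and SI30. In 1 tumour of the female mouse (number 22) the labels place the major clone in SI20 but the minor clone in SI10.

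Values are normalised counts, which the authors estimated with Salmon and scaled between libraries. Summed over all genes they came to between 26140200 and 45909900 per library. These sums are not read depths, so no counting error could be given and the error of each value is the spread between tumours. The 18S ribosomal RNA *Rn18s* took 0.555% to 19.3% of the summed values, and genes of the mitochondrial genome took 1.03% to 6.33%. Enterocyte markers were present in every group, with a summed normalised count over 12 markers of 153672 to 2144030 per library, and fibroblast markers were present at lower sums (6 markers, 433 to 20240). Differences below are on the scale of log2(normalised count + 1) and were tested with limma, in a fit over every gene whose mean was 10 or more, and adjusted p-values are Benjamini-Hochberg values over all those genes. All 81 subunit genes entered every fit. The p-values measure the spread between tumours of 2 mice. The 81 genes rose and fell together between libraries, so counts of genes on 1 side of 0 are not counts of independent observations. In undivided tumours the SD of their mean was 0.320 on the log2 scale, against a median SD of 0.355 for single subunit genes. Over all genes tested the values were 0.09 and 0.512.

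Averaged over the 81 genes, minor clones had a log2 level of 11.72 ± 0.19 (SD, n = 20), major clones of 11.71 ± 0.25 (SD, n = 20) and undivided tumours of 11.86 ± 0.32 (SD, n = 23). The 2 mice differed. In the female mouse the means were 11.60 in minor clones, 11.68 in major clones and 11.66 in undivided tumours (n = 10 each). In the male mouse they were 11.83 (n = 10), 11.74 (n = 10) and 12.02 (n = 13). Minor clones lay between 11.44 and 11.95, major clones between 11.39 and 12.31 and undivided tumours between 11.37 and 12.69. The 3 ranges overlapped, and the 2 highest values belonged to undivided tumours 5 and 2 of the male mouse. Those 2 libraries also had the largest summed values, at 44630800 and 45909900 against at most 37617400 in the others, with *Rn18s* at 11.3% and 12% of the sum. As a share of the summed values, the 81 genes made up 1.52% ± 0.18 of minor clones (SD, n = 20), 1.54% ± 0.24 of major clones (SD, n = 20) and 1.60% ± 0.17 of undivided tumours (SD, n = 23). The highest share, 2.23%, belonged to the major clone of tumour 19 of the male mouse, and tumours 5 and 2 had 2.01% and 1.72%.

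**Figure D1:**
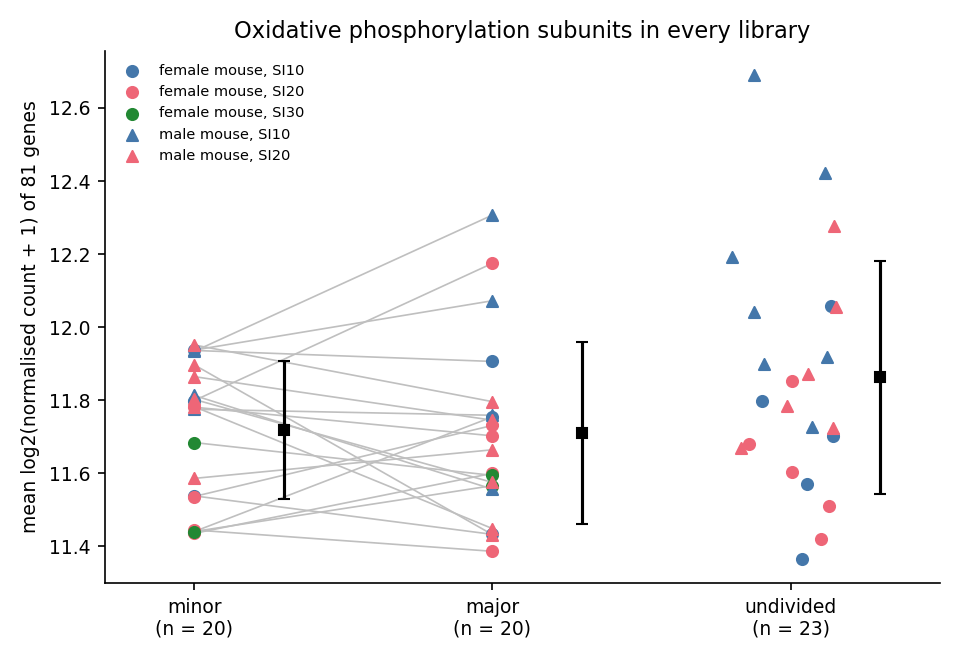
Mean log2(normalised count + 1) of the 81 subunit genes (vertical axis) in every library of the 3 groups (horizontal axis). Circles are the female and triangles the male mouse, colours are segments, grey lines join the clones of 1 tumour, and black squares with bars are mean ± SD. The means of minor and major clones (11.72 and 11.71) lie side by side, lines run up in 8 of 20 tumours and down in the rest, and undivided tumours reach 12.69.

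Single genes spanned a wide range. Per kilobase of the annotated canonical transcript, a length on which the value depends, the mean over all libraries was highest for *Atp5b*, the catalytic beta subunit of ATP synthase, at 28145 normalised counts per kilobase. *Cox4i1*, the widespread form of subunit 4 of complex IV, had 21849.6 per kilobase. *Sdha*, the flavoprotein of complex II that oxidises succinate, had 3819 per kilobase. The lowest values per kilobase were those of *Ndufa4l2* (34.2), a relative of *Ndufa4* known to rise in hypoxia, and of *Cox6b2* (69.9), a testis form of *Cox6b1*.

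The clones that had grown in 1 tumour were compared first. None of the 81 genes passed an adjusted p of 0.05, when 1.14% of the 16428 genes tested did. At an unadjusted p under 0.05 there were 6 subunit genes (7.41%) against 22.4% of all genes. A log2 difference above 0, that is a higher level in the major clone, was found for 37 of the 81 genes (45.7%), against 51.8% of all genes, and the median difference was -0.004 for the subunits and 0.01 for all genes. Under quantile normalisation the number above 0 was 18, and with log2 *Rn18s* as a covariate it was 68. Libraries scaled to the same sum gave 37, and 21 when *Rn18s* and mitochondrial genes were left out of the sum. The female mouse alone gave 71 and the male mouse 14, and tumours of SI10 alone gave 61 and of SI20 alone 13. The direction of the whole group therefore was not the same across settings, mice and segments.

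Complex II stood at the upper end. All 4 of its genes were above 0, with a median log2 difference of 0.08. *Sdha* had normalised counts of 7658 to 14946 in minor clones (median 10311) and 9742 to 16694 in major clones (median 11593). The ranges overlapped, and in 16 of 20 tumours the major clone had the higher *Sdha* value. Its log2 difference was 0.21 ± 0.06 (SE, n = 20 tumours; limma adjusted p = 0.0683), the smallest p among the 81 genes. Without tumour 19 of the female mouse, whose minor clone had the highest *Sdha* value of all minor clones (the next highest had 11175), the difference was 0.24 with a limma adjusted p of 0.0279. *Sdhb*, the iron-sulphur subunit, and *Sdhc* and *Sdhd*, which anchor the enzyme in the membrane and bind ubiquinone, differed by 0.09, 0.07 and 0.06 (limma adjusted p = 0.465, 0.609 and 0.679). Fitted by itself, the male mouse gave differences below 0 for *Sdhb*, *Sdhc* and *Sdhd*.

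In complex I, 16 of 39 genes were above 0 and the median was -0.04. *Ndufb1*, a small accessory subunit, had the largest decrease of the 81 genes, at -0.18 ± 0.08 (SE; limma adjusted p = 0.168), and in 15 of 20 tumours the major clone had the lower value. In complex III, 5 of 8 genes were above 0 (median 0.02). *Uqcrc1*, a core protein of that complex, differed by 0.13 ± 0.06 (SE; limma adjusted p = 0.189). In complex IV 5 of 13 genes and in complex V 7 of 17 genes were above 0, both with a median of 0.00 to 2 decimals. *Atp5e*, the epsilon subunit of ATP synthase, differed by -0.15 ± 0.06 (SE; limma adjusted p = 0.187).

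**Figure D2:**
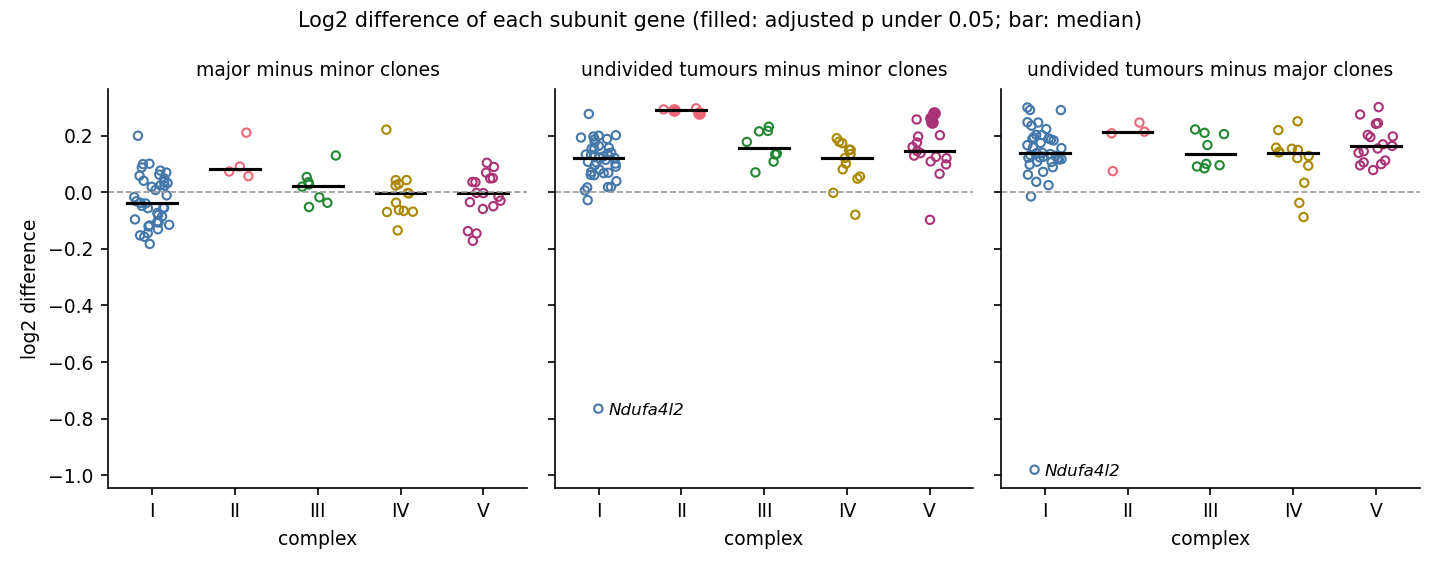
Log2 difference (vertical axis) of each of the 81 genes in 3 comparisons (panels), grouped by complex I to V (horizontal axis). Circles are genes, filled where the limma adjusted p is under 0.05, and bars are medians per complex. Between major and minor clones the circles lie on both sides of 0, whereas 76 and 77 of the 81 genes lie above 0 in the comparisons of undivided tumours with minor and with major clones, where *Ndufa4l2* is the lowest.

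Within single tumours the differences went opposite ways. The mean log2 difference of the 81 genes between the clones of a tumour was -0.01 ± 0.23 (SD, n = 20), from -0.47 in tumour 31 of the male mouse to 0.38 in tumour 22 of the female mouse, and it was above 0 in 8 of 20 tumours. The clones of tumour 22 carry different segment labels, and the next highest value was 0.37 in tumour 19 of the male mouse. The complexes mostly had the same sign within a tumour. In 8 tumours the means of all 5 complexes were higher in the major clone, in 7 tumours all 5 were lower, and the other 5 tumours had 1 or 2 complexes higher. In tumour 19 of the male mouse 77 of 81 genes were higher in the major clone, and in tumour 31 of that mouse 2 of 81 were. The mean difference was 0.08 ± 0.18 (SD, n = 10) in the female mouse and -0.10 ± 0.25 (SD, n = 10) in the male mouse.

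The difference between clones was also compared between the mice and between segments. Between the mice, 0 of the 81 genes and 0% of the 16428 genes passed the adjusted threshold, and 8 subunit genes had an unadjusted p under 0.05 (7.48% of all genes did). The clone difference was lower in the male than in the female mouse for 78 of 81 genes (49.3% of all genes), with a median of -0.18. Between tumours of SI20 and SI10, 0 of the 81 genes and 0% of the 16436 genes passed, and 2 subunit genes had an unadjusted p under 0.05 (4.09% of all genes). The clone difference was lower in SI20 for 77 of 81 genes (52.3% of all genes), with a median of -0.17.

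Of the 13 subunits encoded in mitochondrial DNA, 12 were above 0 between major and minor clones, with a median log2 difference of 0.39, 9 had an unadjusted p under 0.05 (22.4% of all genes did) and 0 passed the adjusted threshold (1.14% did). Their difference from the nuclear genes was not tested. *mt-Atp8*, a small ATP synthase subunit, differed by 0.76 ± 0.23 (SE; limma adjusted p = 0.0715), *mt-Co1*, the catalytic subunit of complex IV, by 0.45 ± 0.16 (SE; limma adjusted p = 0.0999) and *mt-Nd6*, the subunit encoded on the other strand, by -0.40 ± 0.24 (SE; limma adjusted p = 0.329). In 15 of 20 tumours the share of the 13 genes in the summed values was higher in the major clone, with a mean difference of 0.42 ± 0.62 on the log2 scale (SD, n = 20; two-sided permutation test swapping clones within tumours, p = 0.00853, adjusted over 3 shares 0.0113). Another of the 3 shares, that of the whole mitochondrial genome, includes these 13 genes. It was higher in 13 of 20 tumours, by 0.39 ± 0.60 on average (SD, n = 20; the same permutation test, adjusted p = 0.0113). In 15 of 20 tumours the share of *Rn18s* was lower in the major clone, with a mean difference of -1.47 ± 1.47 on the log2 scale (SD, n = 20; the same permutation test, p = 0.00035, adjusted 0.00105), and its part in the other differences was not tested beyond the fit with *Rn18s* as a covariate.

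The signs of the nuclear and mitochondrial means were the same in 10 of 20 tumours. In 7 tumours the nuclear mean was lower and the mitochondrial mean higher in the major clone, in 5 both were higher, in 5 both were lower, and in 3 the nuclear mean was higher and the mitochondrial mean lower. Tumour 31 of the male mouse combined the lowest nuclear difference (-0.47) with a mitochondrial difference of 0.61.

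**Figure D3:**
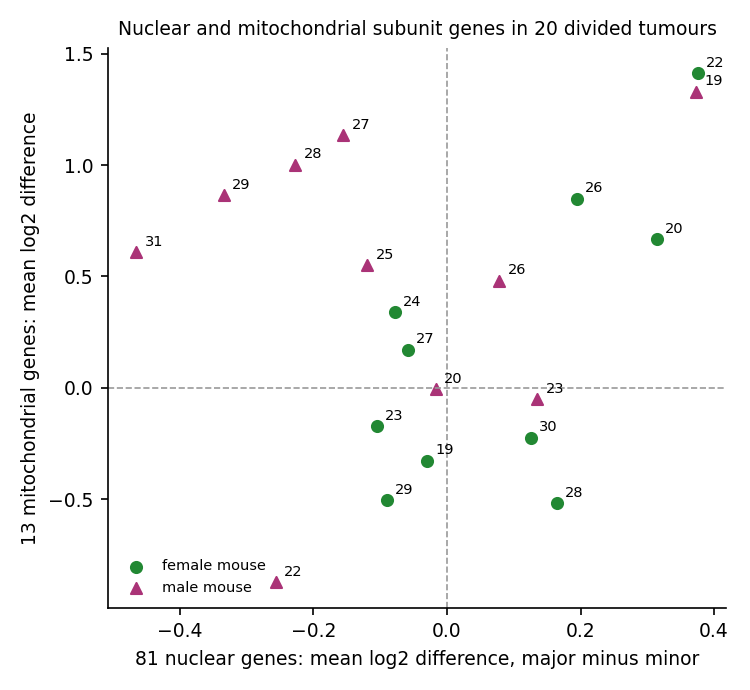
Mean log2 difference between major and minor clone of the 81 nuclear genes (horizontal axis) and of the 13 mitochondrial genes (vertical axis) in each of 20 tumours, labelled by tumour number, with circles for the female and triangles for the male mouse. The upper right and lower left hold 5 tumours each and the lower right holds 3, and the 7 in the upper left had lower nuclear and higher mitochondrial levels in the major clone.

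In undivided tumours 5 subunit genes were higher than in minor clones. Adjusted p-values under 0.05 were found for these 5 of the 81 genes (6.17%) and for none that was lower, when 3.7% of the 16491 genes tested passed and 2.27% passed as higher. On GRCm39 they are *Sdha* at chr13:74469359-74498436 (minus strand), *Sdhc* at chr1:170954732-170978223 (minus strand), *Atp5o* at chr16:91720317-91728575 (minus strand), *Atp5h* at chr11:115305263-115311342 (minus strand) and *Atp5g3* at chr2:73738779-73741933 (minus strand). At an unadjusted p under 0.05 there were 30 subunit genes, all higher (10.2% of all genes). A log2 difference above 0 was found for 76 of 81 genes against 46.7% of all genes, with a median of 0.13 for the subunits and -0.01 for all genes. In these bulk samples, fewer cells of a type and less RNA per cell cannot be told apart.

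*Sdha* ranged from 9826 to 20514 in undivided tumours (median 12115), against 7658 to 14946 in minor clones (median 10311). The ranges overlapped, with 21 of 23 undivided tumours above the mean of the minor clones and 2 above their highest value. These 2 were tumours 2 and 5 of the male mouse. Its log2 difference was 0.29 ± 0.07 (SE; limma adjusted p = 0.0162). *Sdhc* ranged from 4504 to 14451 (median 6729) in undivided tumours and from 4392 to 7455 (median 5809) in minor clones, with 8 undivided tumours above all minor clones and a log2 difference of 0.28 ± 0.08 (SE; limma adjusted p = 0.0491). All 8 of those tumours were from the male mouse. *Sdhb* and *Sdhd* differed by 0.29 and 0.30 (limma adjusted p = 0.0688 and 0.0548), so the 4 genes of complex II, with a median of 0.29, had differences of nearly 1 size whether or not they passed.

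The 3 genes of complex V that passed belong to the peripheral stalk and the membrane ring of ATP synthase. *Atp5o* encodes OSCP, which joins the catalytic head to the peripheral stalk. It ranged from 5477 to 17180.2 in undivided tumours (median 7759) and from 5475 to 8588 in minor clones (median 6939.96), a log2 difference of 0.28 ± 0.08 (SE; limma adjusted p = 0.0348). *Atp5h* encodes subunit d of the same stalk and ranged from 4633 to 13148 (median 6302) against 4240.2 to 6638 (median 5457), a log2 difference of 0.25 ± 0.07 (SE; limma adjusted p = 0.0396). *Atp5g3* is 1 of 3 genes for subunit c, which forms the rotating ring in the membrane. It ranged from 10357 to 28223 (median 14950) against 9830.4 to 16907 (median 12607), a log2 difference of 0.26 ± 0.08 (SE; limma adjusted p = 0.0434). The ranges of all 3 genes overlapped, with 9, 10 and 7 of 23 undivided tumours above every minor clone. For each gene, tumour 5 was the only one of these from the female mouse. The other genes for subunit c, *Atp5g1* and *Atp5g2*, differed by 0.13 and -0.10 and did not pass.

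**Figure D4:**
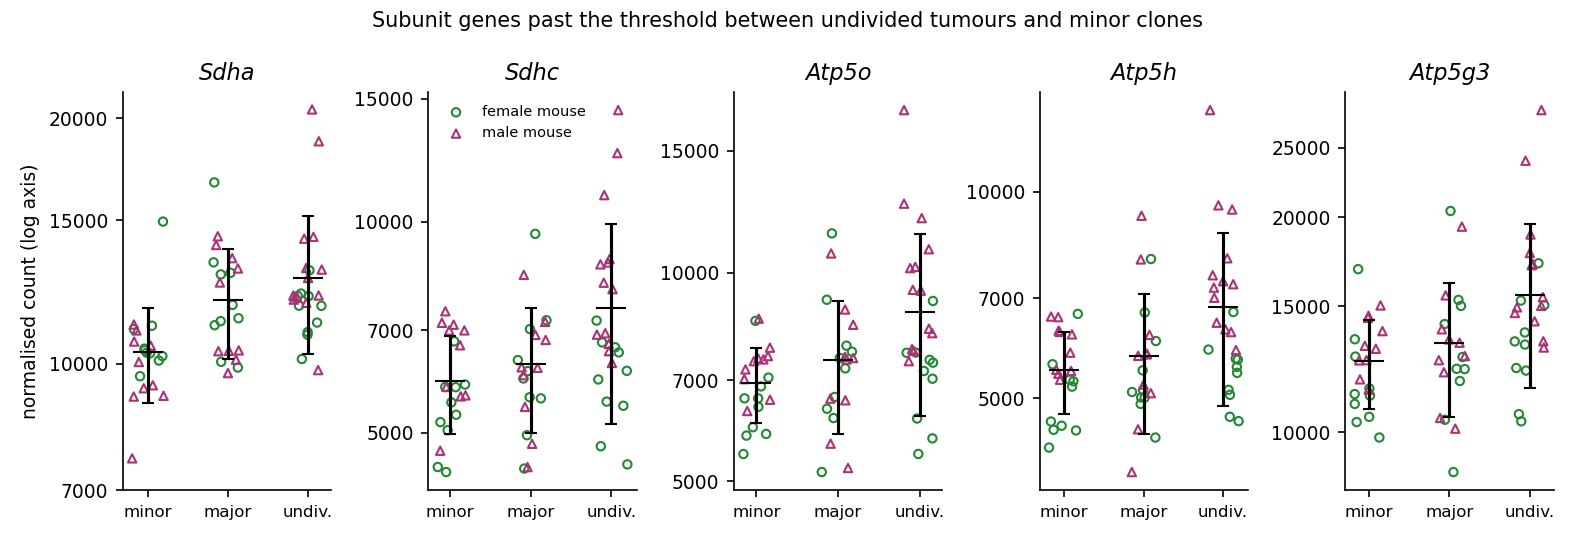
Normalised count (vertical axes, logarithmic) of *Sdha*, *Sdhc*, *Atp5o*, *Atp5h* and *Atp5g3* in every minor clone, major clone and undivided tumour (horizontal axes), with circles for the female and triangles for the male mouse and bars for mean ± SD. The ranges overlap for each gene, and the undivided tumours above all minor clones number 2, 8, 9, 10 and 7. Apart from tumour 5 of the female mouse, they are all from the male mouse.

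Outside complexes II and V none of the genes passed. In complex I, 37 of 39 genes were above 0 (median 0.12), with the smallest p for *Ndufa9* at 0.16 ± 0.05 (SE; limma adjusted p = 0.0561) and the largest difference for *Ndufa5* at 0.28 ± 0.10 (SE; limma adjusted p = 0.0885). In complex III, all 8 genes were above 0 (median 0.16), led by *Uqcrfs1*, the Rieske iron-sulphur protein, at 0.23 ± 0.08 (SE; limma adjusted p = 0.0734). In complex IV, 11 of 13 genes were above 0 (median 0.12). *Ndufa4l2* was the lowest, at -0.76 ± 0.40 (SE; limma adjusted p = 0.285).

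The number of genes that passed changed with single libraries. Leaving out each of the 43 libraries in turn gave between 1 and 14 called genes, over 1.5 times fewer than 5 for 24 libraries and over 1.5 times more for 6. There was 1 such gene without minor clone 26, 27, 28 or 29 of the male mouse, undivided tumour 5 of the female mouse or undivided tumour 2 of the male mouse. There were 2 without minor clone 20, 26, 27, 28 or 30 of the female mouse, minor clone 23 of the male mouse or undivided tumour 17 of the male mouse. There were 3 without minor clone 29 of the female mouse, minor clone 20, 22, 25 or 31 of the male mouse, undivided tumour 6, 7 or 9 of the female mouse or undivided tumour 3, 5 or 9 of the male mouse. There were 8 without undivided tumour 1 of the female mouse, 9 without undivided tumour 3 of the female mouse or 6 or 7 of the male mouse, 11 without undivided tumour 8 of the female mouse and 14 without minor clone 19 of the female mouse. *Sdha* passed in all 43 of these fits, *Atp5o* in 37, *Atp5h* in 28, *Atp5g3* in 20 and *Sdhc* in 13. In the male mouse alone 2 genes passed and *Sdha* differed by 0.45, whereas in the female mouse alone 0 passed and *Sdha* differed by 0.11. Quantile normalisation left 0 calls, with 60 of 81 genes above 0. Without both undivided tumours 2 and 5 of the male mouse, a setting added after the data were seen, *Sdha* alone passed, at 0.23 with a limma adjusted p of 0.0268, and the subunit median was 0.08 with 69 of 81 genes above 0. Undivided tumours 15, 17 and 18 of the male mouse were not left out together. *Rn18s* took 11.0%, 14.4% and 19.3% of their summed values.

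Undivided tumours were also compared with major clones. This comparison shares the undivided libraries with the one above and the major clones share their tumours with the minor clones, so the values stand side by side and are not separate evidence. Of the 81 genes, 0 passed the adjusted threshold (0.0121% of the 16510 genes did), and 22 had an unadjusted p under 0.05 (12% of all genes), 21 higher and 1 lower. A difference above 0 was found for 77 of 81 genes against 47.8% of all genes, with a median of 0.15 for the subunits and -0.01 for all genes. The medians by complex were 0.14 for complex I, 0.21 for II, 0.13 for III, 0.14 for IV and 0.16 for V. *Sdha*, which had the smallest p against minor clones, differed by 0.08 ± 0.07 (SE; limma adjusted p = 0.666) from major clones. *Sdhd* differed by 0.25 ± 0.11, *Cox6c*, a subunit of complex IV, by 0.25 ± 0.12 and *Atp5md*, a small membrane subunit of ATP synthase, by 0.30 ± 0.14 (SE; limma adjusted p = 0.397, 0.397 and 0.393). *Ndufa4l2*, the gene that was lower at an unadjusted p under 0.05, differed by -0.98 ± 0.40 (SE; limma adjusted p = 0.355). In the female mouse alone 34 of 81 genes were above 0, and in the male mouse alone 80 were. The subunit median was 0.06 (68 genes above 0) with libraries scaled to the same sum, 0.04 (61 above 0) with log2 *Rn18s* as a covariate and 0.09 (74 above 0) without undivided tumours 2 and 5 of the male mouse. The 13 mitochondrial subunits had 6 genes above 0 and a median of -0.04, against 13 genes and a median of 0.42 in the comparison with minor clones.

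The segments were compared within undivided tumours and, in other libraries of the same 2 mice, within divided tumours. In undivided tumours 0 of the 81 genes passed between SI20 (n = 11) and SI10 (n = 12), when 0.17% of the 16511 genes tested did, and 6 had an unadjusted p under 0.05, all lower in SI20 (4.14% of all genes). Lower levels in SI20 were found for 79 of 81 genes against 50.1% of all genes, with a median of -0.17 for the subunits and 0.00 for all genes. The subunit median was -0.05 (13 genes above 0) with log2 *Rn18s* as a covariate, -0.07 (13 above 0) with libraries scaled to the same sum, -0.08 (11 above 0) in the female mouse alone and -0.08 (8 above 0) without undivided tumours 2 and 5 of the male mouse. The mean of the 81 genes was 11.95 ± 0.37 (SD, n = 12) in SI10, from 11.37 to 12.69, and 11.77 ± 0.24 (SD, n = 11) in SI20, from 11.42 to 12.28. The ranges overlapped over most of their length. *Ndufa13* and *Sdhb* differed by -0.33 and -0.34 (limma adjusted p = 0.586 for both).

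In divided tumours, with the mean of both clones taken as 1 value per tumour, 0 of the 81 genes passed between SI20 (n = 10) and SI10 (n = 7), when 0.28% of the 16436 genes did. An unadjusted p under 0.05 was found for 23 genes (14.3% of all genes), of which 22 were lower and 1 was higher in SI20. Lower levels in SI20 were found for 77 of 81 genes against 48.8% of all genes, again with a median of -0.17, and 0.01 for all genes. Among all genes with transcripts of 1014 bases or less, the median length of the subunits, 32.5% were above 0 (median -0.11). In undivided tumours 36.2% of them were (median -0.09). Of 78 mitochondrial ribosome genes, 76 were below 0 in divided and 63 in undivided tumours. For 46 assembly factors these counts were 39 and 40, and for 13 tricarboxylic acid cycle enzymes 10 and 13. The subunit median was -0.24 (3 genes above 0) in major clones only and -0.09 (10 above 0) in minor clones only. It was -0.11 (5 above 0) with log2 *Rn18s* as a covariate, -0.11 (6 above 0) in the female and -0.20 (3 above 0) in the male mouse. The mean of the 81 genes was 11.80 ± 0.23 (SD, n = 7) in SI10, from 11.49 to 12.12, and 11.66 ± 0.13 (SD, n = 10) in SI20, from 11.42 to 11.87. *Sdhd* had the smallest p, at -0.31 ± 0.09 (SE; limma adjusted p = 0.201). The gene that was higher in SI20 was *Cox7a1*, a heart and muscle form of subunit 7a, at 0.50 ± 0.16 (SE; limma adjusted p = 0.212). Both sets of tumours had the lower value in SI20 for 77 of 81 genes (95.1%) against 32.4% of the 16205 genes tested in both. The subunit genes moved together between libraries, so this count does not measure the strength of the difference. *Cox7a1* and *Ndufa4l2* were the 2 genes higher in SI20 in both sets.

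**Figure D5:**
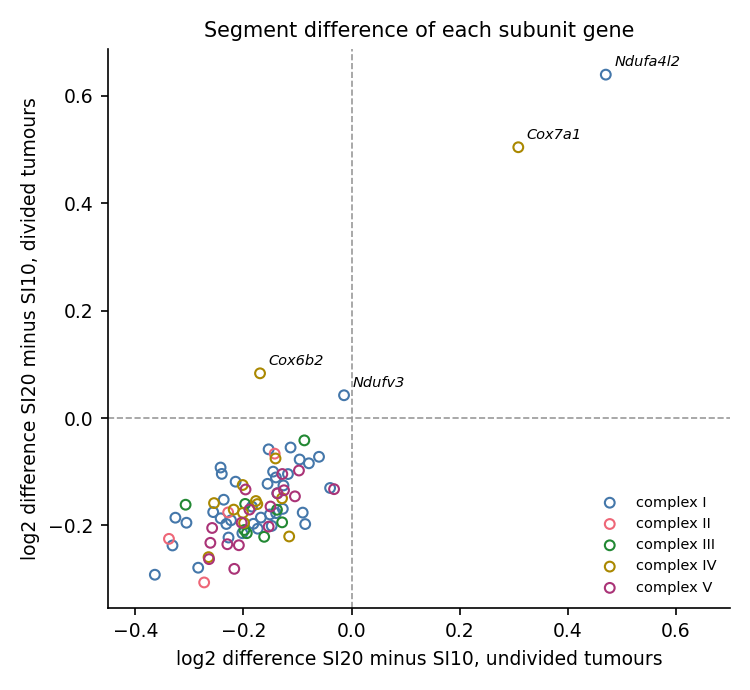
Log2 difference SI20 minus SI10 of each of the 81 genes in undivided tumours (horizontal axis) and in divided tumours (vertical axis), coloured by complex. In the lower left lie the 77 genes lower in SI20 in both, *Cox7a1* and *Ndufa4l2* lie in the upper right, and *Cox6b2* and *Ndufv3* are the remaining 2.

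Single subunit genes differed in how much they varied across undivided tumours, with a median SD of 0.355 on the log2 scale. The genes that varied most were *Ndufa4l2* (SD 1.66 on the log2 scale), *Cox7a1* (1.07) and *Cox6b2* (0.696), all of them restricted relatives of a widespread subunit. *Ndufa4l2* lay near the floor, with normalised counts of 0 in undivided tumours 4 and 18 of the male mouse and at most 69.3 in the others. Its spread therefore depends in part on the 1 added before log2. The steadiest were *Ndufs1* (0.183), the largest core subunit of complex I, *Cox7a2l* (0.195), a relative of *Cox7a2*, and *Atp5a1* (0.212), the alpha subunit of ATP synthase.

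Several subunits have a related second form, in some pairs a restricted beside a widespread one. Of 8 pairs of related genes, 4 had both genes at a mean of at least 10. In 1 of these pairs *Cox7a2l* was not the lower form. Its log2 ratio to *Cox7a2* was 0.45 ± 0.18 in minor clones (SD, n = 20) and 0.38 ± 0.20 in major clones (SD, n = 20). Minor clones had a log2 ratio of *Cox7a1* to *Cox7a2* of -3.58 ± 0.67 (SD, n = 20), and major clones of -3.30 ± 0.51 (SD, n = 20). In 14 of 20 tumours the major clone had the higher ratio, with a mean difference of 0.29 ± 0.53 (SD, n = 20; two-sided permutation test swapping clones within tumours, p = 0.0266, adjusted over 4 pairs 0.106). The log2 ratio of *Ndufa4l2* to *Ndufa4* was -7.30 ± 1.31 (SD, n = 20) in major clones and -8.48 ± 1.86 (SD, n = 23) in undivided tumours, a difference of -1.12 within mice (permutation test, p = 0.0236, adjusted over the 8 ratios of undivided tumours 0.188). That ratio depends in part on the 1 added before log2, because *Ndufa4l2* was near the floor. No ratio passed after adjustment. *Ndufb4* and *Ndufb4c* are near copies that may share reads, and their summed level differed between clones by -0.12 ± 0.37 (SD, n = 20).

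The other genes of the pathway were counted from lists of known function, against shares of all genes that passed of 3.7% between undivided tumours and minor clones and 1.14% between the clones. *Ndufab1*, *Cyc1* and *Cycs*, which encodes cytochrome c, differed by 0.17, 0.19 and 0.23 between undivided tumours and minor clones, and none passed. Of 13 enzymes of the tricarboxylic acid cycle other than complex II, all 13 were higher in undivided tumours than in minor clones and 5 passed, among them *Ogdh* at 0.34 and *Mdh2* at 0.35. Citrate synthase, *Cs*, differed by 0.30 ± 0.08 (SE; limma adjusted p = 0.026). All 13 were also above 0 between major and minor clones, where *Ogdh* passed at 0.26 ± 0.06 (SE; limma adjusted p = 0.0477). Among 6 carriers and channels for ATP, ADP and phosphate, 2 passed as higher and 1 as lower in undivided tumours than in minor clones. The adenine nucleotide carrier *Slc25a5* and the phosphate carrier *Slc25a3* rose by 0.29 and 0.21 (limma adjusted p = 0.025 and 0.0271), while *Slc25a4*, the muscle form of the nucleotide carrier, fell by 0.39 (limma adjusted p = 0.0315). *Slc25a4* was also lower in major than in minor clones, at -0.34 ± 0.09 (SE; limma adjusted p = 0.0483).

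Of 13 regulators of mitochondrial genes, 1 passed in undivided tumours against minor clones. This was *Esrra*, a nuclear receptor that activates genes of respiration, at 0.34 ± 0.10 (SE; limma adjusted p = 0.0409). *Ppargc1a*, its best known coactivator, differed by -0.23 ± 0.22 (SE; limma adjusted p = 0.618), *Nrf1* by 0.05 and *Tfam*, the packaging and transcription factor of mitochondrial DNA, by 0.04. Of 46 assembly factors 29 were above 0 in that comparison and 1 passed, *Cox16*, which acts in the assembly of complex IV. Of 78 proteins of the mitochondrial ribosome, 44 were above 0 in undivided tumours against minor clones and 17 were above 0 in major against minor clones, and none passed in either.

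Markers of cell types were counted against the same shares of all genes. Of 12 enterocyte markers, 11 were higher in undivided tumours than in minor clones (median log2 difference 0.53) and 3 passed, among them sucrase-isomaltase, *Sis*, at 1.17 ± 0.28 (SE; limma adjusted p = 0.0169). Their summed level was 242984 to 2144030 in undivided tumours, 153672 to 1442530 in minor clones and 168889 to 1649150 in major clones. All 12 were above 0 between major and minor clones, with a median of 0.46, and 1 passed. Of 4 enteroendocrine markers all 4 were higher in undivided tumours than in minor clones (median 0.95) and 3 passed, with summed levels of 1441 to 8198 against 495 to 4847. Of 6 goblet cell markers all 6 were above 0 between major and minor clones (median 0.60) and 2 passed, with summed levels of 69297 to 242386 against 15537 to 208326. Of 6 fibroblast markers, 5 were above 0 between major and minor clones, all 5 at an unadjusted p under 0.05 (median 0.68), and 0 passed, with summed levels of 1495 to 20240 against 1240 to 18307. All 6 were below 0 between undivided tumours and major clones, with a median of -0.89 and summed levels of 433 to 10937 against 1495 to 20240, and 0 passed. The same 6 were all above 0 in SI20 against SI10 of undivided tumours, with a median of 0.93, and 0 passed. In divided tumours 5 of the 6 were above 0 in SI20, with a median of 0.14, while the enterocyte markers were above 0 for 6 of 12 in undivided tumours (median -0.06) and for 10 of 12 in divided tumours (median 0.45), and 0 passed. All 7 smooth muscle markers were above 0 between major and minor clones (median 0.58), 5 at an unadjusted p under 0.05, and 0 passed. In undivided tumours against minor clones, 1 of 6 crypt stem cell markers and 1 of 5 Paneth cell markers were above 0. Between the clones 4 of 6 and 4 of 5 were, and 0 passed in either comparison. In undivided tumours against minor clones, 1 of 4 endothelial markers passed as lower and 1 of 4 immune markers as higher. None of the markers in these lists was at 0 in every library. The part of these markers in the differences of the subunit genes was not tested.

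RefSeq promoters on GRCm38.p6 were held for 67 of the 81 subunit genes, and the 250 bases before the first listed start were searched on both strands for 3 motifs known from genes of respiration. The ETS motif CCGGAAG, which the GABP factor binds, was found in 11 of 67 (16.4%) against 9.13% of 17492 promoters. The NRF1 motif (GCGC, any base, then TGCGC) was found in 12 of 67 (17.9%) against 5.3%, and the YY1 motif AAGATGGC in 0 of 67 against 1.51%. A match is a stretch of letters and not a measured binding site. The sequences below are those held for the genes that passed between undivided tumours and minor clones, *Sdha*, *Atp5h*, *Atp5o* and *Atp5g3*, 5′ to 3′ on the strand of the gene, with ETS and NRF1 matches in capitals.
Sdha promoter: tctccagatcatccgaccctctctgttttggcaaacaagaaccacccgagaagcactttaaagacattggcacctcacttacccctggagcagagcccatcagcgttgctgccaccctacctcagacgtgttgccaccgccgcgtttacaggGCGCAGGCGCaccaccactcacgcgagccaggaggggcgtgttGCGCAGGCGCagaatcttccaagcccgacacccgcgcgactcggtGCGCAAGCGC
Atp5h promoter: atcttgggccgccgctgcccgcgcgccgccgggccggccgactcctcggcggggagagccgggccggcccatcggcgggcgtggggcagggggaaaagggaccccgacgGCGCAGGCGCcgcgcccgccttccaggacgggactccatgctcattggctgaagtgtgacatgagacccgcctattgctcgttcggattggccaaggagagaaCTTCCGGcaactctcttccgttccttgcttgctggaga
Atp5o promoter: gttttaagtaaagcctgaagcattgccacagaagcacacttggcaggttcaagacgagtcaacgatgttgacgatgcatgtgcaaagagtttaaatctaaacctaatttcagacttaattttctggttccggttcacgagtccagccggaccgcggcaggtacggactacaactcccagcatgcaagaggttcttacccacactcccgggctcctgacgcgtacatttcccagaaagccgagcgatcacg
Atp5g3 promoter: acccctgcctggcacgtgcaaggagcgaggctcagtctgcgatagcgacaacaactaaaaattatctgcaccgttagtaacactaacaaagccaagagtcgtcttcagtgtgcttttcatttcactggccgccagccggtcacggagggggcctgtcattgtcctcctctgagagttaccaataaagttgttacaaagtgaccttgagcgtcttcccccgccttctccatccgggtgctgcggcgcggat
They lie on GRCm38.p6 at chr13:74350241-74350490 for *Sdha*, chr11:115419920-115420169 for *Atp5h*, chr16:91931631-91931880 for *Atp5o* and chr2:73911327-73911576 for *Atp5g3*, all on the minus strand. *Sdha* holds 3 NRF1 matches, *Atp5h* holds 1 ETS and 1 NRF1 match, and *Atp5o* and *Atp5g3* hold neither.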

How the data were processed

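Bulk RNA was sequenced from a stranded poly(A) library for each of 63 clones or tumours. Per the labels and the study's methods, the authors checked reads with FastQC 0.11.9, trimmed them with Trimmomatic 0.39, aligned them with STAR 2.7.7a to GRCm39 for quality control, and quantified genes with Salmon 1.9.0. The deposited signal values are estimated gene counts that the authors had scaled between libraries. The scaling method is not given in the sources used here. Since the values are not whole reads, the depth is unknown and no count model was used. The table's columns were all used.

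Samples were grouped by the clone letter in their titles, and which letter was the major clone was taken from the study's own source data, since titles alone do not say it. The members and lists were chosen with earlier results of these data known. Genes with a mean under 10 in the libraries compared were left out, 1 was added before log2, and limma 3.58.1 (R 4.3.3, empirical Bayes with a trend) was fitted with tumour as a block for paired clones and mouse as a covariate otherwise. Adjusted p-values are Benjamini-Hochberg values with a threshold of 0.05. The pairing comes from the tumour number in the titles. After centring on the group means, clones of 1 tumour had a median correlation of 0.265 (0.0282 to 0.620, above 0.1 in 17 of 20 tumours), against -0.0198 between different tumours. Ratios and shares were tested with two-sided permutation tests (100000 permutations).

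Named genes were those that passed (all if 12 or fewer), the smallest p and largest difference each way in each complex, all *Sdh* genes, pairs of related subunits, *Ndufab1*, *Cyc1* and *Cycs*, and up to 5 listed genes that passed. Other genes given by name were chosen after their values were seen. Some genes that this rule names are not reported here. Gene lists and motifs came from general knowledge. Scripts were tested on simulated data. Alternatives changed the pseudocount, filter, scaling, covariates, pairing, test and libraries used. Transcript lengths and genome positions came from Gencode M39 on GRCm39, which matched 24575 of 24766 gene identifiers and all 81 subunit genes. Figures were drawn with matplotlib 3.10.9 in Python 3.11.15.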

Additional observations from a re-analysis of the deposited data

Results flagged for a closer look

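Single tumours stood apart from the other tumours of the male mouse (n = 10) for 3 genes in the difference between major and minor clones. *Ndufb1* differed by 0.69 in tumour 19, the highest of the 10, and *Atp5e* differed by 0.48 in the same tumour. *Atp5g2* differed by -1.39 in tumour 20, the lowest of the 10. Each gap to the nearest tumour exceeded Dixon's critical value. These were 3 of 102 groups examined, and chance alone gives about 1 in 20.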

How the results depend on the processing

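The number of subunit genes that passed was 0 under every alternative for major against minor clones, undivided tumours against major clones and both segment comparisons, except that leaving out single tumours gave 0 to 1 between the clones (1, *Sdha*, without tumour 19 of the female mouse). Without the replicate block for tumour, 0 genes passed between clones, the median stayed at -0.004 and the limma adjusted p of *Sdha* was 0.224 instead of 0.0683. For undivided tumours against minor clones the number was 5 and became 2 with no filter on low values, 8 with a mean of at least 50, 0 with quantile normalisation, 1 with libraries scaled to the same sum with or without *Rn18s* and mitochondrial genes, 29 with log2 *Rn18s* as a covariate, 0 in the female and 2 in the male mouse, 3 with segment as a covariate, 2 with SI10 and SI20 only and 1 without undivided tumours 2 and 5 of the male mouse, a setting chosen after seeing the data. Leaving out single libraries gave 1 to 14. The cause was not tested. Scaling to the same sum moved the median of all genes to -0.11 and that of the subunits to 0.04 (59 of 81 above 0) in this comparison, and to 0.11 and -0.07 (13 above 0) between SI20 and SI10 of undivided tumours.

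Some single values changed sign. Between clones these were *Sdhd* under quantile normalisation (-0.014), *Atp5e* in the female mouse (0.0079), *Sdhb*, *Sdhc* and *Sdhd* in the male mouse (-0.016, -0.050 and -0.058), and *Sdhc* and *Sdhd* in SI20 (-0.042 and -0.059). Between undivided tumours and major clones they were *Sdha* at the same sum (-0.015) and *Sdha*, *Sdhb* and *Sdhc* in the female mouse (-0.051, -0.10 and -0.066). Among log2 ratios in the female mouse, *Cox7a2l* to *Cox7a2* differed by 0.012 between clones and by 0.058 and 0.046 between undivided tumours and minor and major clones, *Cox7a1* to *Cox7a2* by -0.043 between undivided tumours and minor clones, and *Ndufa4l2* to *Ndufa4* by -0.085 between clones. In the male mouse *Cox6b2* to *Cox6b1* differed by -0.25 between clones and by 0.011 between undivided tumours and major clones. Of 1030 values recomputed other than by leaving out 1 tumour or library, 940 kept their direction and side of the threshold or stayed within the spread, 18 changed sign, 35 lost and 9 gained significance, and 28 moved further. The 2 mice limit every comparison, and the unknown depth leaves counting error unmeasured.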
